A study of Mus musculus with 6 samples.

Results

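Fibroblast growth factors (FGFs) are secreted proteins that bind receptor tyrosine kinases (FGFR1 to FGFR4 in mammals) together with heparan sulfate, and the receptors signal largely through FRS2, GRB2, RAS and MAP kinases. In the hair follicle FGF18 is known as a factor of the resting phase that keeps hair bulge (HB) stem cells quiescent, and FGF5 as the factor that ends hair growth. FGF7 and FGF10 come mainly from the mesenchyme, among others from the dermal papilla, and act on the epithelial form of FGFR2.

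The genes described are 9 of the 22295 genes of the count table, chosen by name, with earlier results of these data known: the ligand genes Fgf18, Fgf1, Fgf2, Fgf5 and Fgf22, the receptor genes Fgfr1, Fgfr2 and Fgfr3, and Fgfbp1, which encodes a carrier that releases FGFs from the extracellular matrix. RNA was sequenced from GFP-positive keratinocytes sorted from the epidermis of 3 K19 *Itga3* WT and 3 K19 *Itga3* KO mice. WT mice carried K19(Cre-ERT) and the mTmG reporter, KO mice carried the same alleles with Itga3 fl/fl, and all were bred on FVB. Every mouse had been shaved and given tamoxifen (10 mg/ml over 4 days, at 6 weeks of age, per the sample labels, with another concentration and age in the study's methods), then 30 μg of the carcinogen DMBA at 7 weeks of age, then repeated doses of 12.34 μg of the tumour promoter TPA, so there was no untreated skin to compare with. The K19 promoter drives Cre mainly in the HB, and GFP also marks the progeny of the recombined cells, which the study located in growing follicles and in places in the upper follicle and the epidermis. Reads were counted per gene, so splice forms of a receptor, including the epithelial and mesenchymal forms of FGFR2, were not told apart.

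The libraries held 20578309 to 23670507 counts on genes and are lettered a to c within each genotype, since their names give no sample number. Values of single libraries are listed in that order. The targeted gene Itga3 stood at 252 to 371 CPM (gene counts scaled to the effective library size) in WT and 124 to 134 CPM in KO libraries. HB markers were abundant in all libraries (Krt15 9616 to 15459 CPM, Lgr5 362 to 695 CPM), and Cd34 was lower in KO (399 to 625 CPM) than in WT libraries (806 to 881 CPM; log2 fold change −0.72, adjusted p = 0.0462 from edgeR). Library WT a was lowest in part of the cell cycle RNA, with Mki67 at 57.7 CPM against 147 to 297 CPM in the other 5 libraries. Top2a, Ccnb1, Cdk1, Birc5 and Aurkb were lowest in WT a as well. Pcna (115 CPM in WT a, 96.6 to 137 CPM in the others) and Mcm2 (111 against 76.4 to 133 CPM) were not. Markers of fibroblasts summed to 116 to 178 CPM in WT and 48.1 to 80.4 CPM in KO libraries, most of it from Col1a1 and Col1a2. Within that list Dcn stood at 0.573 to 1.69 CPM in WT and 1.55 to 5.44 CPM in KO libraries, Col3a1 had no count in WT, and Lum, Corin and Rspo3 had at most 3 counts in any library. The lists of other cells gave low sums in both groups, 6.25 to 11.5 CPM for 7 immune cell genes (led by Cd74), 8.31 to 16.5 CPM for 7 melanocyte genes (led by Dct) and 3.70 to 8.67 CPM for 4 endothelial genes (led on average by Tek).

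Of the 5 ligand genes Fgf18 had the highest CPM in every library and Fgf5 lay near the limit of detection, so the sequences before their starts are shown as the regulatory context of the pair. They are the 250 bases upstream of the RefSeq start (GRCm38.p6), written 5′ to 3′ on the gene's strand, with the GC box (GGGCGG or its complement CCGCCC) in capitals. The stretch of Fgf18 is chr11:33147401-33147650 on the minus strand and that of Fgf5 is chr5:98253934-98254183 on the plus strand.
Fgf18: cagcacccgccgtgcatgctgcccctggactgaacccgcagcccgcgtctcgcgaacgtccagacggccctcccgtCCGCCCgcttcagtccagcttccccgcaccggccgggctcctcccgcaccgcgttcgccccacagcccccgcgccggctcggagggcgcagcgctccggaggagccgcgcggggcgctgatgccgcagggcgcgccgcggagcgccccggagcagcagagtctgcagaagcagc
Fgf5: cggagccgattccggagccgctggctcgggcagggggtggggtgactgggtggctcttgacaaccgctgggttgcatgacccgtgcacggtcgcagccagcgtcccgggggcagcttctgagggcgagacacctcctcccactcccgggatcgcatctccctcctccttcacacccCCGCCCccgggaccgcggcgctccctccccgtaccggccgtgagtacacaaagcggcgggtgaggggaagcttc
Both stretches were rich in CpG, with 37 CpG for Fgf18 and 24 for Fgf5 against a median of 6 over 32851 promoters of the same length, at percentiles 97.8 and 88.0. Each held 1 GC box, a sequence found in 32.7% of all these promoters. Promoters were matched for 7 of the 9 genes (Fgf2, Fgf5, Fgf18, Fgf22, Fgfbp1, Fgfr2 and Fgfr3, in 8 stretches because Fgfr3 has an additional start). None of the 8 held TGANTCA, the site of the TPA-responsive factor AP-1, which 6.75% of all promoters held, and none held GGAATG or CATTCC, the site of TEAD factors, which 12.6% held. A match or its absence describes only the letters of these 250 bases. Their CpG counts ran from 2 in Fgfr2 to 37 in Fgf18.

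HB-derived keratinocytes contained RNA of all 3 receptors, of Fgfbp1 and of Fgf18 within a narrow range per kb of exon, less of Fgf1, and few counts of Fgf2, Fgf5 or Fgf22. Levels of different genes were compared as CPM per kb of exon (the union of a gene's exons in the reference annotation), which for Fgfr1 was 63.0 ± 9.83 (SD, n = 6 libraries of both genotypes). Fgfbp1 followed with 41.7 ± 5.76, Fgfr2 with 34.8 ± 2.65, Fgf18 with 31.9 ± 4.78 and Fgfr3 with 29.8 ± 5.31 CPM per kb. The second place of Fgfbp1 came from the KO libraries, with a KO mean of 46.5 against 32.6 for Fgfr2, whereas the WT means were 36.8 for Fgfbp1, 36.9 for Fgfr2, 33.5 for Fgfr3 and 32.9 CPM per kb for Fgf18. Lower on this scale came Fgf1 with 2.92 ± 1.43, Fgf2 with 0.131 ± 0.0967, Fgf5 with 0.109 ± 0.0416 and Fgf22 with 0.00688 ± 0.0107 CPM per kb. The 8 pairs of neighbours in this order were compared over the 6 libraries by an exact two-sided permutation test that flips the sign of each library's difference, whose smallest possible p is 0.0313 (0.0625 after adjustment here), so that no pair could be called. The order, and so the pairs, came from the means of the same 6 libraries of both genotypes, so these p-values are descriptive only.

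Fgfr1 exceeded Fgfbp1 in 6 of 6 libraries, and the same held for Fgfr3 over Fgf1, Fgf1 over Fgf2 and Fgf5 over Fgf22 (each p = 0.0313 by the exact test, adjusted p = 0.0625). The step from Fgfr3 to Fgf1 measured 3.47 ± 0.48 and that from Fgf1 to Fgf2 4.63 ± 1.69 on the log2 scale (SD, n = 6). With the genotypes pooled, the neighbouring pairs among Fgfbp1, Fgfr2, Fgf18 and Fgfr3 did not separate by more than their spread (exact permutation p from 0.156 to 0.406). The other pairs of these genes were not tested. In WT libraries the values of these genes overlapped. In KO libraries Fgfbp1 (43.3, 47.1 and 49.1 CPM per kb) lay above Fgfr2 (31.9 to 33.4), Fgf18 (26.6 to 34.6) and Fgfr3 (23.7 to 27.5). The order of Fgf2 and Fgf5 turned with the genotype, so that their pooled comparison (exact permutation p = 0.938) is of little use. Fgf5 was above Fgf2 in the 3 WT libraries (0.128, 0.110 and 0.176 against 0.0744, 0.0473 and 0.0455 CPM per kb) and below it in the 3 KO libraries (0.0510, 0.0938 and 0.0967 against 0.295, 0.145 and 0.178). The order depends on the length used. Scaled by the longest transcript, the levels were 123 for Fgfr1, 81.1 for Fgfr2 and 50.3 CPM per kb for Fgfr3, all above Fgfbp1 (43.0) and Fgf18 (34.8), because the union of exons is much longer than any single receptor transcript (9875 against 5041 bases for Fgfr1). Scaled by the coding length, Fgf1 stood at 34.3 CPM per kb, less far below Fgf18 (60.9), and Fgf2 at 1.92 and Fgf5 at 0.345, because most of the exonic length of Fgf1 and Fgf2 is not coding.

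**Figure D1:**
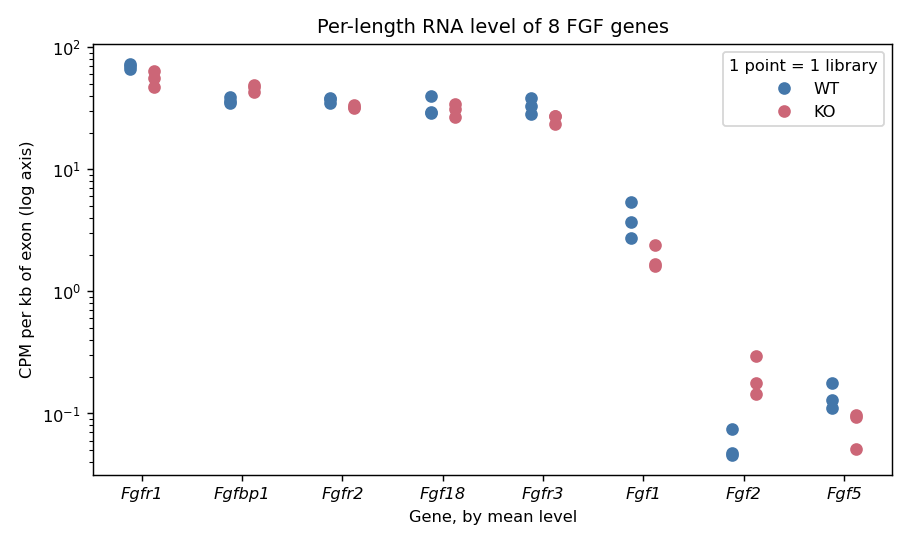
RNA level per length (CPM per kb of exon, log axis) of 8 genes in 3 WT (blue) and 3 KO (red) libraries, 1 point per library. On this scale the 3 receptors, Fgfbp1 and Fgf18 lie between 23.7 and 73.5 CPM per kb, Fgf1 between 1.63 and 5.41, and Fgf2 and Fgf5 below 0.30. Fgf22 is not drawn because 4 libraries had no count.

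Among the 5 ligand genes, Fgf18 made up 93.2%, 84.1% and 88.2% of the summed level per kb of exon in WT and 92.9%, 92.2% and 94.8% in KO. Nearly all the rest was Fgf1, at 6.34%, 15.4% and 11.1% in WT and 5.89%, 7.06% and 4.46% in KO libraries. The KO shares of Fgf18 overlapped the WT shares through WT a (exact two-sided permutation test, p = 0.3, n = 3 per genotype, where 0.1 is the smallest p possible). These shares hold for exon length. With the coding length, applied to the shares after seeing the data, Fgf18 made up 46.7% to 75.0% and Fgf1 21.7% to 52.4% per library, and in WT b Fgf1 had the larger share. Among the receptors, Fgfr1 made up 45.8% to 51.7%, Fgfr2 25.4% to 31.1% and Fgfr3 22.0% to 25.7% per library, and these shares overlapped between the genotypes for each receptor (exact two-sided permutation test, p from 0.3 to 0.5, n = 3 per genotype).

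The main comparison asked whether loss of integrin α3β1 changed these genes. In edgeR's quasi-likelihood test, 0 of the 9 genes had an adjusted p below 0.05, where 0.673% of the 21681 genes tested did, and 5 of the 9 had an unadjusted p below 0.05, where 11.5% of all genes did. The groups did not overlap for 7 of the 9: both Fgf2 and Fgfbp1 were higher in every KO library than in any WT library, as were 8.03% of all genes, and Fgf1, Fgf5, Fgfr1, Fgfr2 and Fgfr3 were lower in every KO library, as were 8.23% of all genes. Over the 8 genes other than Fgf22, which had 0 or 1 counts per library, the median log2 fold change was −0.25, and with Fgf22 it was −0.18. The median over all genes tested, which keeps genes with as few counts, was 8.82e-05. Whether fewer cells of a kind or less RNA per cell lie behind a lower value cannot be told apart in these bulk samples. All genotype p-values measure the spread between 3 mice per group.

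**Figure D2:**
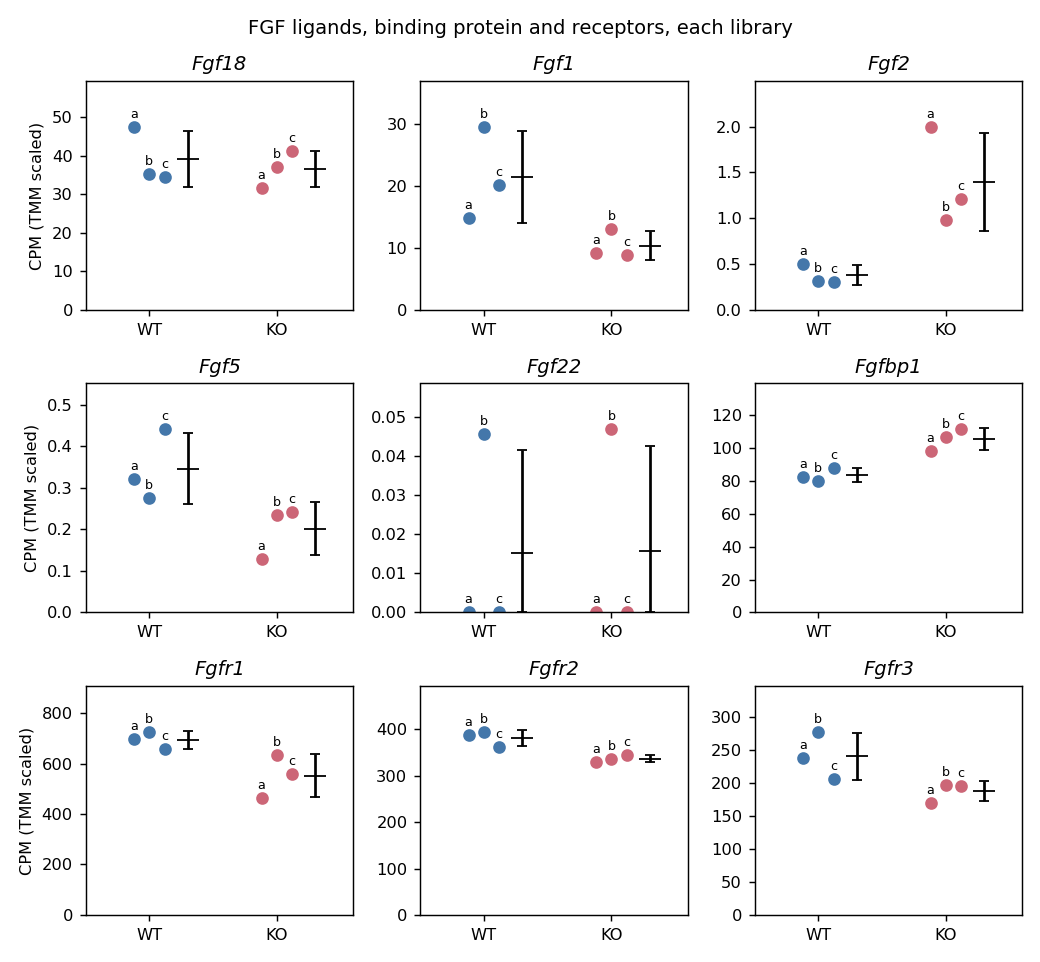
CPM (scaled by TMM factors, linear axes from 0) of the 9 genes in WT (blue) and KO (red) libraries, lettered a to c, with the mean and SD in black (n = 3, lower bar stopped at 0). Fgf1, Fgf5 and the 3 receptors are lower in each KO library and Fgf2 and Fgfbp1 higher, while Fgf18 and Fgf22 overlap.

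Of the ligands, Fgf18 (ENSMUSG00000057967, chromosome 11, 33117430 to 33147400, GRCm38) stood at 47.5, 35.1 and 34.6 CPM in WT and at 31.6, 37.0 and 41.1 CPM in KO, on 743 to 1034 counts per library. WT a was highest and KO a lowest, and the other 4 libraries of both genotypes lay between them. The log2 fold change of KO against WT was −0.10 with a standard error of 0.14 (95% confidence interval −0.41 to 0.22, adjusted p = 0.811 from edgeR). Without WT a it was 0.07 (adjusted p = 0.796), so the sign rested on that library.

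Fgf1 encodes a ligand of all FGF receptors that lacks a signal peptide. The gene (ENSMUSG00000036585, chromosome 18, 38838673 to 38929404) stood at 14.9, 29.5 and 20.1 CPM in WT and at 9.22, 13.0 and 8.90 CPM in KO. WT b was highest, and WT a, the lowest WT library, lay just above KO b, the highest KO library. The KO mean was 48.3% of the WT mean. The log2 fold change was −1.05 with a standard error of 0.23 (95% confidence interval −1.56 to −0.54), which did not pass (adjusted p = 0.0708 from edgeR; p = 0.1 in the exact permutation test, the smallest possible). The adjusted p was 0.00393 in DESeq2, 0.192 in limma-voom, 0.00985 without WT a and 0.506 without KO a. With genes of low counts removed it was 0.163 (edgeR's filterByExpr) and 0.165 (at least 10 counts in every library). The summed fibroblast markers given above, through Col1a1 and Col1a2 but not Dcn, and Cd34 were lower in KO libraries as well, and their part in the result was not tested.

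Fgf2 encodes another ligand without a signal peptide, known as basic FGF. It had 11, 7 and 7 counts in WT and 47, 21 and 25 counts in KO, or 0.505, 0.321 and 0.309 against 2.00, 0.985 and 1.21 CPM. Every KO library was above every WT library, and KO a was highest. The log2 fold change was 1.88 with a standard error of 0.41 (95% confidence interval 0.99 to 2.77), the largest in size among the 8 genes other than Fgf22, but it did not pass (adjusted p = 0.0660 from edgeR; exact permutation p = 0.1). It passed in DESeq2 (adjusted p = 0.0223) and without WT a (0.0357). The adjusted p was 0.131 with filterByExpr and 0.399 without KO a. In the count table Fgf2 (ENSMUSG00000037225) runs on chromosome 3 from 37312519 to 37405377 and so takes in Bbs12, a gene of the same strand at 37312554 to 37321453. Bbs12 itself stood at 5.86 ± 0.73 CPM in WT and 5.84 ± 0.66 CPM in KO libraries (SD, n = 3). Nudt6, an antisense neighbour of Fgf2, stood at 4.95 ± 0.46 and 4.56 ± 0.06 CPM. The RefSeq promoter of Fgf2 lies inside this interval, at 37348403 to 37348652, so the interval starts well upstream of it. Whether Fgf2 shared exons with Bbs12 in the annotation used for counting was not tested, and the few Fgf2 counts may include other RNA of that strand. The level per length carries the same limit.

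Fgf5 and Fgf22 gave too few counts for a comparison of the genotypes. Fgf5 (ENSMUSG00000029337, chromosome 5, 98254184 to 98277030) had 7, 6 and 10 counts in WT and 3, 5 and 5 in KO. These levels, 0.346 ± 0.086 CPM in WT and 0.201 ± 0.064 CPM in KO (SD, n = 3), stand just above the floor of 3 counts, which equals 0.127 to 0.146 CPM. All KO counts lay below all WT counts, yet the log2 fold change of −0.78 had a 95% confidence interval of −1.94 to 0.38 (adjusted p = 0.638 from edgeR). Fgf22 (ENSMUSG00000020327, chromosome 10), a ligand described in skin and its appendages, had 1 count in WT b, 1 in KO b and 0 in the other 4 libraries, all at or below that floor, so its fitted fold change is not interpreted. Counting error alone is covered by this floor.

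The balance of the pair, Fgf18 over Fgf5 per length, does not depend on the scaling of a library. On the log2 scale the ratio was 8.18, 7.96 and 7.30 in WT and 8.81, 8.24 and 8.35 in KO. Each KO value was above each WT value, with a mean difference of 0.65 (exact two-sided permutation test, p = 0.1, n = 3 per genotype, the smallest p possible). The ratio rests on the 3 to 10 Fgf5 counts per library, and the difference was 0.39 without WT c.

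Fgfbp1 (ENSMUSG00000048373, chromosome 5, 43978865 to 43981762) stood at 82.5, 79.6 and 87.7 CPM in WT and at 98.0, 107 and 111 CPM in KO. The libraries of each genotype lay close together and did not overlap with the other genotype. The log2 fold change was 0.34 with a standard error of 0.09 (95% confidence interval 0.14 to 0.53), which did not pass in edgeR (adjusted p = 0.126) and passed in DESeq2 (adjusted p = 0.0270). Fgf1, Fgf2 and Fgfbp1 were thus the 3 of 9 genes with an adjusted p below 0.05 in DESeq2, where 3.99% of the 13690 genes with an adjusted p had one. Fgf5 had no adjusted p in DESeq2, so the 9 genes and this share are not counted alike. In limma-voom 0 of the 9 had an adjusted p below 0.05 (0.111% of all genes, lowest adjusted p of the 9 0.158, for Fgf2). Without WT a edgeR called Fgf1 and Fgf2, where it called 2.44% of all genes.

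The receptor genes were all lower in KO libraries, by less than the ligand Fgf1. Fgfr1 (ENSMUSG00000031565, chromosome 8, 25513654 to 25575714) stood at 695, 726 and 658 CPM in WT and at 463, 635 and 557 CPM in KO. KO a was far below the WT libraries and KO b close to them. The log2 fold change was −0.33 with a standard error of 0.12 (95% confidence interval −0.59 to −0.07, adjusted p = 0.288 from edgeR), and it was −0.22 without KO a.

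Fgfr2 (ENSMUSG00000030849, chromosome 7, 130162451 to 133123350) is the receptor of FGF7 and FGF10 in its epithelial form. It stood at 389, 395 and 361 CPM in WT and at 329, 337 and 345 CPM in KO, so that the groups were separated by a narrow margin between WT c and KO c. Its log2 fold change of −0.18, with a standard error of 0.09, had a 95% confidence interval of −0.37 to 0.01 (adjusted p = 0.475 from edgeR). This interval overlaps 31 other genes, 17 of them on the same strand. Of these only Ctbp2 shares exonic bases with the gene model (314 bases), and it stood at 50.9 ± 4.86 CPM in WT and 53.0 ± 1.43 CPM in KO libraries. The RefSeq promoter of Fgfr2, at 130266809 to 130267058 on the minus strand, lies inside the interval, which starts far upstream of it.

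Fgfr3 (ENSMUSG00000054252, chromosome 5, 33721724 to 33737068) stood at 237, 277 and 205 CPM in WT and at 169, 197 and 195 CPM in KO. WT c was only slightly above KO b and c, and WT b was highest. The log2 fold change was −0.36 with a standard error of 0.12 (95% confidence interval −0.61 to −0.10, adjusted p = 0.234 from edgeR). For none of the 3 receptors did any of the 14 alternative fits give an adjusted p below 0.05, and all of these fits kept the sign. Because the groups of each receptor did not overlap, leaving out 1 library could hardly have turned the sign.

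**Figure D3:**
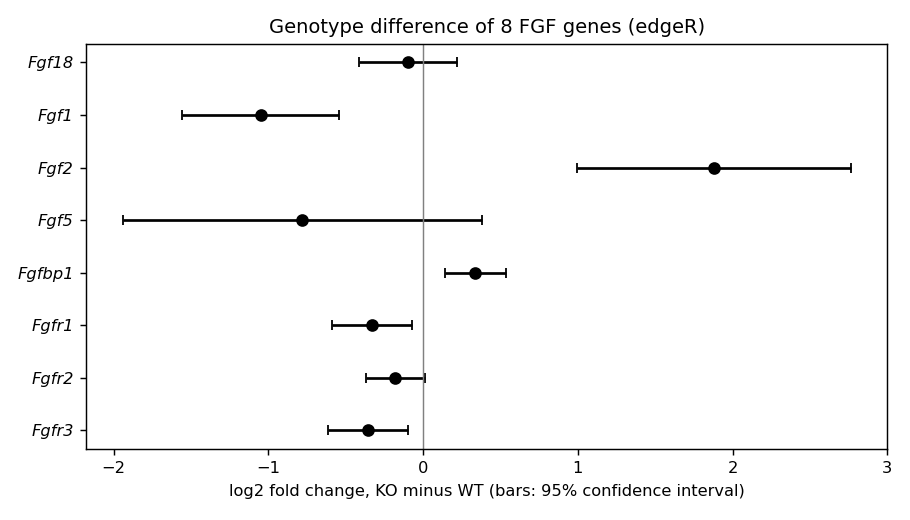
Log2 fold changes of KO against WT from edgeR (points) with 95% confidence intervals (bars) for 8 genes; Fgf22 had too few counts. The intervals of Fgf1, Fgf2, Fgfbp1, Fgfr1 and Fgfr3 lie on one side of 0 before adjustment for the 21681 genes tested, and none of the 8 has an adjusted p below 0.05.

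The plot of adjusted p by setting shows how far each gene stood from the threshold. For Fgf1 the adjusted p ranged from 0.00393 to 0.506, for Fgf2 from 0.0223 to 0.399 and for Fgfbp1 from 0.0270 to 0.430 over the alternatives in tool, scaling and filter and the omission of single libraries. The direction of each of these 3 genes was the same in every one of those fits. Since their groups did not overlap, leaving out 1 library could hardly have turned it, so the kept direction adds little.

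**Figure D4:**
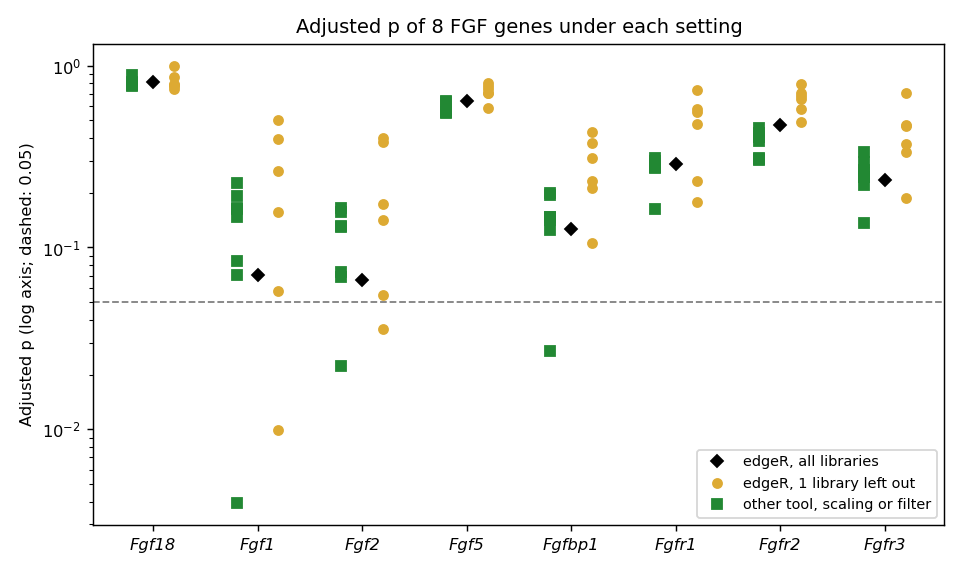
Adjusted p (log axis, dashed line at 0.05) of 8 genes in edgeR with all libraries (black), with 1 library left out (yellow) and under other tools, scalings or filters (green). Only Fgf1, Fgf2 and Fgfbp1 have points below the line.

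The remaining genes of the pathway were taken from lists chosen by function. Of 17 other FGF ligands, 11 were tested, and 5 of these had at most 3 counts in every library, among them Fgf10. Fgf7 stood at 0.220 to 0.779 CPM in WT and 0.213 to 0.435 CPM in KO libraries, and Fgf11, which belongs to the intracellular FGF homologous factors, was the most abundant at 7.45 to 7.71 CPM in WT and 7.44 to 8.17 CPM in KO libraries. Fgfrl1, a receptor without a kinase domain, led the other receptors and partners with 15.1 to 19.3 CPM, and the receptor Fgfr4 reached at most 0.275 CPM. In none of these lists did a gene pass (0 of 11 ligands and 0 of 5 receptors and partners, adjusted p from edgeR), where 0.673% of all genes tested passed.

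All 23 heparan sulfate genes (core proteins and modifying enzymes) had counts in every library, from 5 to 22 counts for the sulfotransferase gene Hs3st1, picked after its values were seen, up to the syndecan gene Sdc1 at 1174 to 1618 CPM in WT and 1578 to 1643 CPM in KO libraries. Of these, 14 had a higher and 9 a lower fitted value in KO, with a median log2 fold change of 0.06, and 0 passed. Of the 20 transducers of receptor signals, 16 had a higher and 4 a lower fitted value in KO, with a median log2 fold change of 0.06, and 0 passed in edgeR. Over all 21681 genes tested the median was 8.82e-05, and 0.673% passed. The adaptor gene Gab1 (log2 fold change 0.32) passed in DESeq2 alone (adjusted p = 0.0416). Its relative Gab2 passed only without WT a (log2 fold change −0.68, adjusted p = 0.0291).

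Fitted values of the FGF response genes lay on both sides of 0. Of 20, 13 had a higher and 7 a lower fitted value in KO, with a median log2 fold change of 0.24. In edgeR 0 passed, where 0.673% of all genes tested did. An unadjusted p below 0.05 was found for 9, where 11.5% of all genes tested had one. Fos, the most abundant, stood at 4166, 2115 and 2381 CPM in WT and at 3188, 3948 and 3467 CPM in KO, the highest value being that of WT a. The genes named next were picked after their values were seen. Without WT a, edgeR called 5 of the 20, where it called 2.44% of all genes, with higher values in KO for Fos (log2 fold change 0.66), Egr1 (0.60), Dusp5 (0.86) and Ccnd1 (0.76) and lower values for Spred3 (−0.92), so that these calls depended on that library. Etv4, an ETS factor induced by FGF signaling, stood at 58.3, 45.6 and 56.7 CPM in WT and at 65.0, 75.2 and 92.9 CPM in KO libraries (log2 fold change 0.54 with a standard error of 0.14; edgeR adjusted p = 0.113, DESeq2 0.0285). Spry1, which encodes a feedback inhibitor, stood at 38.5, 37.7 and 37.6 CPM in WT and at 27.1, 33.3 and 28.7 CPM in KO libraries (log2 fold change −0.35 with a standard error of 0.11; adjusted p = 0.202), while its relative Spry4 measured 0.63 on that scale, with a standard error of 0.24 (adjusted p = 0.320). These genes respond to other growth factors and to TPA as well.

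**Figure D5:**
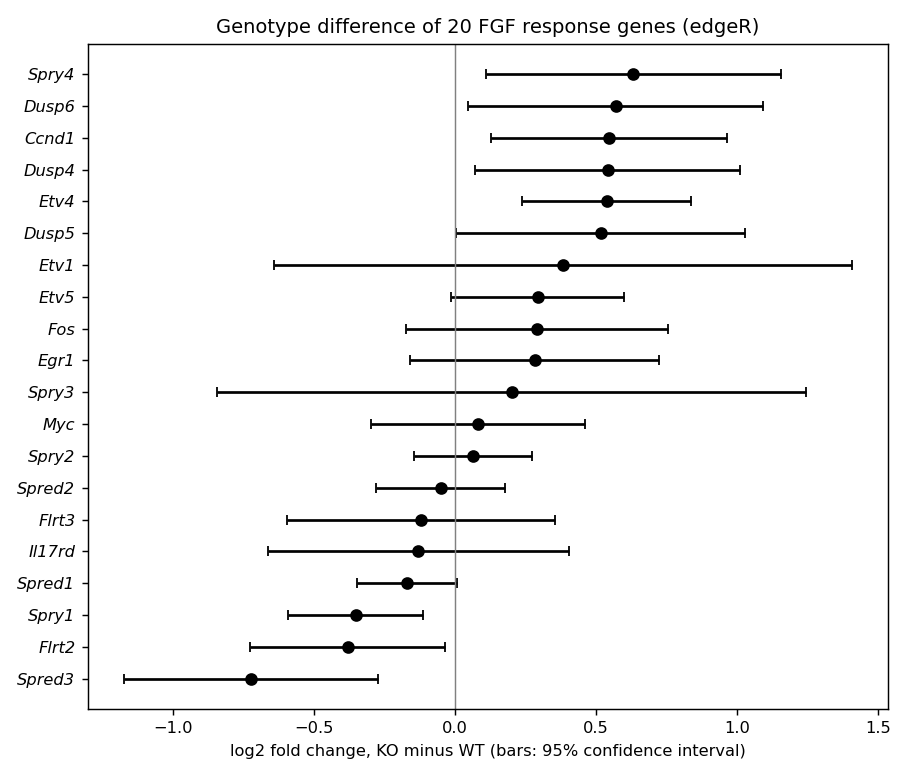
Log2 fold changes of KO against WT from edgeR (points) with 95% confidence intervals (bars) for the 20 FGF response genes, ordered by size. Values run from −0.72 for Spred3 to 0.63 for Spry4, and none of the 20 has an adjusted p below 0.05.

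Markers of cell states differed between the genotypes beside these genes. The 11 genes of the HB list, led by Krt5, summed to 44880 to 60170 CPM in WT and 44110 to 52570 CPM in KO libraries. Most of that sum came from Krt5, Krt15 and Krt14, and the study used the Krt14 gene to target the whole epidermis. In KO, 8 of the 11 had a lower and 3 a higher fitted value. Cd34 was the only one past the threshold, which 0.673% of all genes tested passed. In edgeR 4 of the 11 had an unadjusted p below 0.05, against 11.5% of all genes. These were Cd34, Postn, Lgr5 and Col17a1, all lower in KO. Of 6 genes of the inner bulge and companion layer, Krt17 was higher in KO (2069 to 2090 CPM in WT, 2710 to 3874 CPM in KO libraries; adjusted p = 0.0409 from edgeR), and the list summed to 3915 to 4897 CPM in WT and 6256 to 8023 CPM in KO libraries, a sum that was not tested. Nearly all of it came from Krt6a, Krt6b, Krt16 and Krt17, keratins also known from wounded and stressed epidermis. Krt75 of the companion layer, picked after its values were seen, stood at 103 ± 24.6 CPM in WT and 106 ± 27.7 CPM in KO libraries (adjusted p = 0.976 from edgeR). Bmp6, the remaining gene of the list, was higher in every KO library. It stood at 15.4, 14.0 and 10.8 CPM in WT and at 24.1, 18.6 and 34.8 CPM in KO libraries (log2 fold change 0.95, adjusted p = 0.0708 from edgeR). Of 11 genes of growing follicles, 8 had a higher and 3 a lower fitted value in KO. The 3 genes past the threshold, which 0.673% of all genes tested passed, were Krt25, Krt28 and Krt35. They were higher in KO, all at low levels (adjusted p = 0.0256, 0.0461 and 0.0462 from edgeR). The others, among them Lef1, Msx1, Gata3, Krt27 and Tchh, did not pass. Krt25 stood at 0.176 to 0.641 CPM in WT and 1.31 to 6.92 CPM in KO libraries. Krt28 stood at 1.33 to 2.06 and 3.0 to 9.05 CPM, and Krt35 at 0.275 to 0.353 and 0.703 to 5.1 CPM. The summed list spanned 169 to 200 CPM in WT and 185 to 216 CPM in KO libraries, and most of it came from Gata3 and Hoxc13. The 8 proliferation genes summed to 391 to 1002 CPM in WT and 616 to 888 CPM in KO libraries, with 0 past the threshold. The part of these states in the differences of Fgf1, Fgf2, Fgfbp1 and the receptors was not tested.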

How the data were processed

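RNA of FACS-sorted keratinocytes was measured in 6 strand-specific libraries, 1 per mouse. The authors aligned single reads with TopHat2 2.1.0 and Bowtie 1.1 to mouse build GRCm38 and deposited raw counts of uniquely mapped reads per gene, counted by strand, without normalization. Reads shared with a near-identical copy are lost by this. All 6 columns carry a genotype but no sample number.

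Counts were analysed in R 4.3.3. The 21681 genes with a count in at least 1 library were tested for KO against WT with edgeR 4.0.16 (TMM factors 0.981 to 1.03, quasi-likelihood test, Benjamini-Hochberg adjustment over all of them, threshold 0.05). CPM are TMM scaled, and 95% confidence intervals come from the same fit. Single values were compared by exact two-sided permutation tests, at best p = 0.1. Exon lengths came from GENCODE M21, which held 98.85% of the genes, and promoter sequences from RefSeq (GRCm38.p6). The Fgf18 to Fgf5 ratio used a pseudocount of 0.5 counts. Alternatives were limma-voom (limma 3.58.1), DESeq2 1.42.0, edgeR with other scalings or filters, fits that left out 1 library at a time and, for levels per length, the longest transcript or the coding length. No library was a copy of another (chi-square per degree of freedom of at least 10.7 for each pair). The code was tested on simulated data.

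The genes and lists were chosen with earlier results of these data known. Genes named were the 9 of the list, of each pathway list those past the threshold and the most abundant, Itga3, Krt15, Cd34 and Lgr5, the most abundant of each marker list, and the 3 genes most like Fgf18 and Fgf5. Further genes were picked with their values in view. Listed genes without a row in the table (Fgf4, Fgf6, Fgf12, Fgf14, Fgf16, Fgf23, Kl, Klb, Krt72, Krt85 and Cldn5) were not analysed here. Some genes that this rule names are not reported here.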

Additional observations from a re-analysis of the deposited data

How the results depend on the processing

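No paired analysis was possible because the columns of the count table carry no sample number. With all libraries, the number of genes with an adjusted p below 0.05 was 146 in edgeR and moved to 24 and 28 in limma-voom (TMM factors or library size only), 546 in DESeq2, 15 with filterByExpr, 12 under a minimum of 10 counts per library and 25 among protein-coding genes, and it ran from 5 (without WT c) to 521 (without WT a) when single libraries were left out, with 10 without KO a and 30 without KO c. Of the 9 FGF genes, DESeq2 called 3, namely Fgf1 (log2 fold change −1.05), Fgf2 (1.90) and Fgfbp1 (0.34), and single omissions called 0 to 2. When single libraries were left out, the log2 fold change ran from −0.19 to 0.07 for Fgf18, whose sign turned without WT a only (0.074), from −1.25 to −0.75 for Fgf1 and from 1.52 to 2.15 for Fgf2. Of the pathway lists, DESeq2 called 2 genes (Etv4 and Gab1), and single omissions called 0 to 6, the 6 being Fos, Egr1, Dusp5, Ccnd1, Gab2 and Spred3 without WT a. With the longest transcript or the coding length in place of the union of exons, 2 neighbouring pairs of the order of levels changed places. With the coding length the mean share of Fgf18 among the ligands was 63.4% and that of Fgf1 34.0%, against 90.9% and 8.38%. The genotype difference of the Fgf18 to Fgf5 ratio ran from 0.39 to 0.84 when single libraries were left out. The causes of these shifts were not tested. Fgf2 (7 to 47 counts), Fgf5 (3 to 10) and Fgf22 (0 or 1) are limited by depth; Fgf2 and Fgf5 had no fit at 10 counts in every library.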

Other observations

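The genes whose pattern over the 6 libraries was most like that of Fgf18, among 8574 with a mean log2 CPM above 4, were Mtr (Pearson r of log2 CPM 0.99), Tgfb1i1 (0.97) and Birc6 (0.96), and 12 of the 8574 genes had an r above 0.95. Mtr, which encodes methionine synthase, stood at 23.5, 19.2 and 19.0 CPM in WT and at 18.0, 20.4 and 22.3 CPM in KO libraries (a, b, c), so that WT a was highest and KO a lowest, as for Fgf18. For Fgf5, Ddr1 (r = 0.99) and Aqp3 (0.98 over the same 6 libraries) were among the nearest genes, and 30 of 8575 genes had an r above 0.95. The pattern of Fgf5 itself rests on 3 to 10 counts per library. All genes of a library share its depth, scaling and cell mixture, which differ between libraries, so these values are a description only.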
